A study of Homo sapiens with 8 samples.

Results

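The PD-1 ligands and costimulatory molecules followed here are 8 surface proteins through which a B cell or a tumour cell speaks to T cells: CD274 (PD-L1), PDCD1LG2 (PD-L2), CD80, CD86, ICOSLG, CD58, ICAM1 and CD40. They were chosen by name, and every probe whose transcript identifier on the array belongs to 1 of these genes was taken, which gave 11 of the 41000 probes. The samples came from L1236, a line established from Hodgkin lymphoma, a tumour of B cell origin in which the microRNA miR-155 is abundant. Cells were transduced with the empty retroviral vector pMSCV-PIG (EV) or with the same vector carrying a miR-155 sponge, a transcript with repeated binding sites that competes with natural targets for the microRNA, and GFP-positive cells were sorted from each. From either population total RNA (T) and the RNA precipitated by an anti-Argonaute 2 antibody (Ago2-IP, here IP) were hybridised. This makes 4 groups, namely the T and the IP fraction of EV cells and of sponge cells, with 1 RNA sample each. All of them share the same cell line, and neither a second culture nor a second precipitation was measured.

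Each RNA sample was labelled once with Cy3 and once with Cy5, on 4 two-colour arrays that give 8 channels. A value written with ± is the mean and SD over the 2 labellings or, for IP/T, over the 2 dye orientations (IP in Cy5 with T in Cy3, and the reverse). This error covers labelling and hybridisation and leaves out the variation between cultures, so no difference was tested and no p-value is given. A probe was kept when 4 or more of the 8 channels had it flagged as well above background and its Cy3 and Cy5 signals lay within 2-fold of each other in each RNA sample. Of all probes 22467 were kept, among them 10 of the 11 and at least 1 for each of the 8 genes. These 10 were well above background in 8 of 8 channels and saturated in 0. Sponge total RNA in Cy5 was the dimmest channel, in which 54.1% of spots were well above background, while the other channels had 61.0% to 65.7%.

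An antigen receptor signal alone does not set the course of a T cell, which also reads ligands on the cell it faces. CD80 and CD86 engage the activating receptor CD28 and its inhibitory relative CTLA4, ICOSLG engages ICOS, and CD274 and PDCD1LG2 engage the inhibitory receptor PD-1. CD58 and ICAM1 are adhesion ligands for CD2 and the integrin LFA-1, and CD40 is a receptor on the B cell that T cells trigger through CD40 ligand. Reed-Sternberg cells, the tumour cells of Hodgkin lymphoma, are known for carrying several of these molecules, and CD274 and PDCD1LG2 lie next to each other in a region of chromosome 9 that is often gained in this tumour. Ago2 holds a microRNA and the transcripts paired with it, so that the ratio of IP to T (IP/T) measures how strongly a transcript is represented among the RNAs bound to Ago2, whichever microRNA brought it there.

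The sponge was directed against miR-155-5p, whose mature sequence is shown because it is the microRNA that the design aimed to inhibit. In RefSeq (GRCh38.p14) it lies at chr21:25573983-25574006 on the + strand. Its seed, bases 2 to 8 from the 5′ end, stands in capitals.
hsa-miR-155-5p: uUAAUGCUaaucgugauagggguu
A transcript complementary to bases 1 to 8 of the microRNA, with an A opposite the first base, holds the 8-mer AGCATTAA, and the 6-mer GCATTA is its core. Among 2370 mature human microRNA names in the RefSeq table, 1 had this seed, miR-155-5p itself. Sites in the transcripts of the 8 genes were not analysed here, and the level of mature miR-155 was not analysed here.

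To determine how strongly these transcripts were represented among Ago2-bound RNA in cells without the sponge, IP was compared with T in EV cells. CD274, PDCD1LG2, CD80 and CD58 were enriched in the IP fraction, by 19.4-fold, 8.37-fold, 7.16-fold and 5.05-fold at their main probes, the kept probe of highest mean signal. ICOSLG, ICAM1 and CD86 lay within 2-fold of equal representation, and CD40 was 1.78-fold higher in T than in IP. Thus 4 of the 8 genes had an IP/T ratio of 2 or more, the threshold used in the study, where the same held for 18.1% of the 11200 named genes at their main probe. Counted by probe, 5 of the 10 kept probes passed it, against 17.5% of all kept probes. A ratio of 2 or more in favour of T was found for 0 of the 8 genes, against 18.8% of the named genes, and for 0 of the 10 kept probes, against 19.0% of all kept probes. The median log2 IP/T over the 8 genes was 1.52 ± 0.18, beside −0.16 over all named genes. Such a set of 8 genes chosen by name is too small for its share to be read as more than a description.

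**Figure D1:**
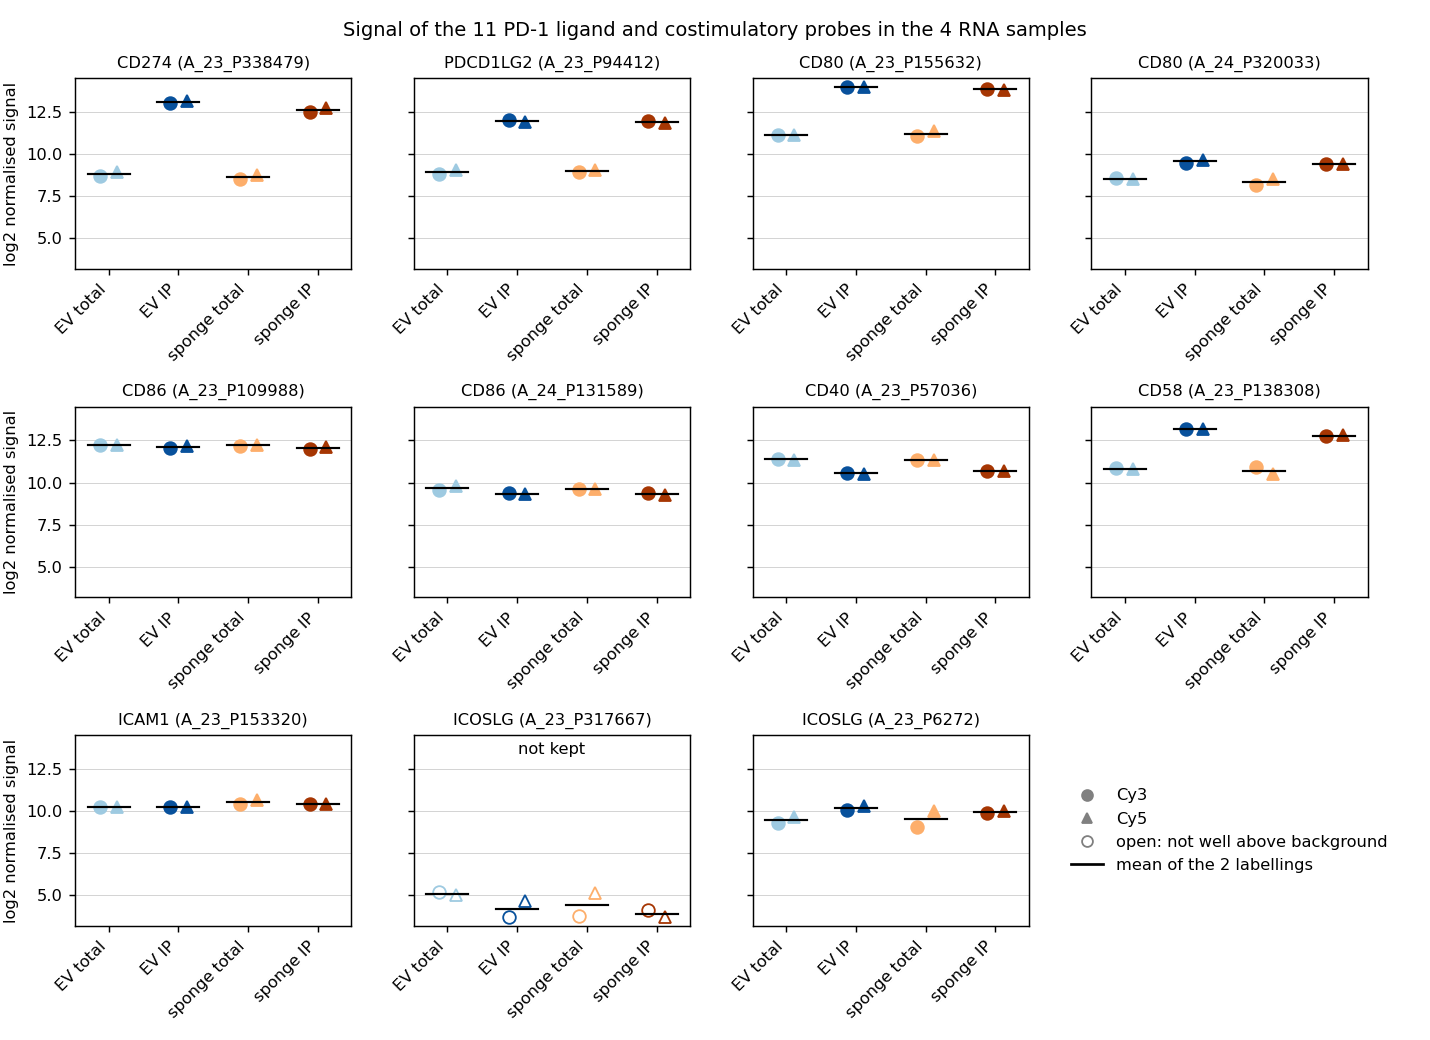
Normalised log2 signal (y axis) of each of the 11 probes in the 4 RNA samples (x axis), with circles for Cy3, triangles for Cy5, a line at their mean, and open symbols where the channel was not well above background. CD274 stands at 8.55 to 8.93 in T and at 12.52 to 13.16 in IP, whereas the 2 CD86 probes and ICAM1 are nearly level across the panels and ICOSLG A_23_P317667 is open throughout.

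CD274, the main ligand of PD-1, showed the widest gap between the fractions among the 8 genes. On the log2 scale of normalised signals, probe A_23_P338479 gave 8.71 in Cy3 and 8.93 in Cy5 in EV total RNA, and 13.03 and 13.16 in EV IP. In sponge cells it gave 8.55 and 8.73 in total RNA, and 12.52 and 12.73 in IP. IP lay above T in every labelling, EV IP above sponge IP without overlap, and the total RNA of the populations overlapped. In EV cells the log2 IP/T was 4.28 ± 0.25 (4.45 and 4.10 with IP in Cy5 and in Cy3, respectively), a value reached by 0.307% of the kept probes. It was 3.98 ± 0.28 in sponge cells (4.18 and 3.79), a 15.8-fold ratio that 0.405% of the kept probes reached. After normexp background correction (with an offset of 50) and loess and Aquantile normalisation the log2 values were 3.26 (EV) and 2.76 (sponge). The cause of this move was not tested.

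PDCD1LG2, the other ligand of PD-1 and the neighbour of CD274, followed the same order of fractions at a smaller distance. Probe A_23_P94412 read 8.79 in Cy3 and 9.04 in Cy5 in EV total RNA, and 12.05 and 11.92 in EV IP. Sponge cells gave 8.95 and 9.06 in total RNA, and 11.99 and 11.81 in IP, so that the populations overlapped in either fraction. The log2 IP/T of PDCD1LG2 was thus 3.07 ± 0.09 without and 2.89 ± 0.04 with the sponge, ratios of 8.37 and 7.43. As for CD274, these values moved with normexp at the same offset. They became 1.82 in EV cells with quantile normalisation and 1.65 in sponge cells with loess and Aquantile.

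CD80 was measured by 2 probes with the same transcript identifier, and they differed. The brighter, A_23_P155632, gave 11.14 in Cy3 and 11.12 in Cy5 in EV total RNA, and 13.96 and 13.97 in EV IP. In sponge cells the same probe gave 11.05 and 11.34 in total RNA, and 13.89 and 13.80 in IP. For this probe the ratio on the log2 scale was 2.84 ± 0.003 without the sponge and 2.65 ± 0.14 with it. With the second probe, A_24_P320033, EV total RNA read 8.59 and 8.51 and EV IP 9.48 and 9.67. Sponge cells read 8.17 and 8.53 in total RNA and 9.39 in IP with either dye. Both probes placed IP above T in every labelling, but the log2 IP/T of the second was only 1.02 ± 0.08 (EV cells) and 1.03 ± 0.26 (sponge cells), just inside the 2-fold threshold. It lay below that threshold with IP in Cy3 (0.97 and 0.85) and after normexp (0.45 in EV cells with quantile normalisation). The gap of 1.82 between the probes was matched or exceeded by 114 of the 3273 transcripts with 2 or more kept probes (3.48%), whose median range was 0.36. Where on the transcript each probe lies was not analysed here.

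CD86, which shares its receptors with CD80, was not enriched with either of its probes. A_23_P109988 read 12.21 in Cy3 and 12.20 in Cy5 in EV total RNA, 12.05 and 12.16 in EV IP, 12.17 and 12.25 in sponge total RNA, and 12.01 and 12.10 in sponge IP. Its IP signals lay slightly below its T signals in both populations, with log2 ratios of −0.11 ± 0.07 (EV) and −0.16 ± 0.12 (sponge). The first of these turned positive, to 0.070, after normexp, loess and Aquantile. The dimmer probe A_24_P131589, at 9.57 and 9.78 in EV total RNA and 9.40 and 9.30 in EV IP, gave −0.32 ± 0.08 in EV and −0.30 ± 0.08 in sponge cells. In EV cells the log2 IP/T of CD80 exceeded that of CD86 by 2.94 ± 0.08 at the main probes and by 1.35 ± 0.002 at the second probes, both larger than the SD over orientations.

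ICOSLG, the ligand of ICOS, was the least well measured of the B7 family genes. Its probe A_23_P6272 gave 9.31 in Cy3 and 9.62 in Cy5 in EV total RNA, 10.04 and 10.30 in EV IP, 9.07 and 10.03 in sponge total RNA, and 9.88 and 10.00 in sponge IP. The 2 labellings of sponge total RNA thus differed by 0.96, just inside the 2-fold limit of the filter, and the probe was lost with a limit of 1.5-fold. The log2 IP/T of 0.70 ± 0.41 in EV cells exceeded its spread, whereas 0.39 ± 0.76 in sponge cells did not. The second ICOSLG probe, A_23_P317667, was well above background in 0 of 8 channels, with signals between 3.70 and 5.17, and no ratio is given for it.

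Of the adhesion ligands, CD58 was enriched and ICAM1 was not. CD58 (A_23_P138308) gave 10.86 in Cy3 and 10.79 in Cy5 in EV total RNA, and 13.16 with either dye in EV IP. Sponge cells gave 10.89 and 10.51 in total RNA, and 12.75 and 12.79 in IP. IP stood above T throughout, and sponge IP below EV IP without overlap. CD58 thus had a log2 IP/T of 2.34 ± 0.05 without the sponge, reached by 4.01% of the kept probes, and of 2.07 ± 0.24 with it, reached by 5.22%. ICAM1 (A_23_P153320) read 10.23 and 10.26 in EV total RNA and again 10.23 and 10.26 in EV IP. In sponge cells it read 10.44 and 10.68 in total RNA, and 10.42 and 10.41 in IP. The corresponding log2 ratios of ICAM1 were 0.0014 ± 0.042 (EV) and −0.15 ± 0.15 (sponge), neither beyond the spread.

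CD40, the receptor of the group, was the only 1 of the 8 genes whose T signal exceeded its IP signal by more than 1.5-fold. Probe A_23_P57036 read 11.41 in Cy3 and 11.36 in Cy5 in EV total RNA, and 10.57 and 10.53 in EV IP. It read 11.33 and 11.32 in sponge total RNA, and 10.69 and 10.71 in sponge IP. The fractions and the populations separated without overlap. The log2 IP/T of CD40 was −0.83 ± 0.06 without and −0.63 ± 0.006 with the sponge, so that T exceeded IP by 1.78-fold and 1.55-fold. Each of the 12 alternatives kept this sign in both populations, with values from −0.88 to −0.53 in EV cells. Those that changed only the filter left the value as it was.

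**Figure D2:**
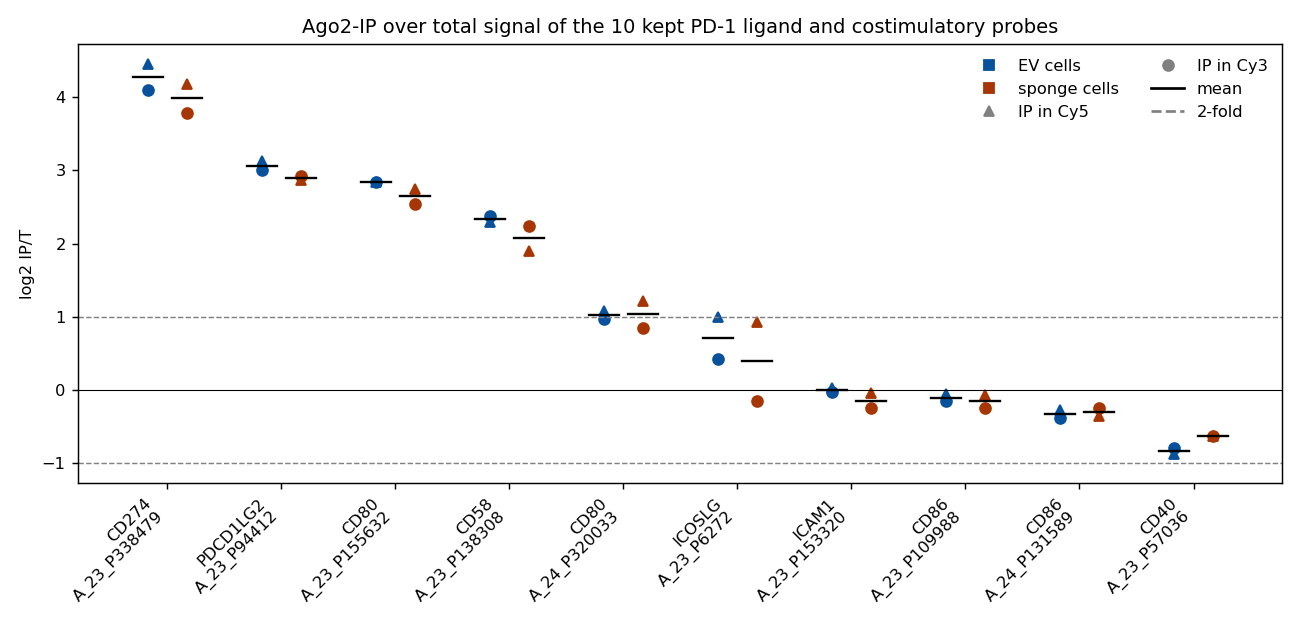
Log2 IP/T (y axis) of the 10 kept probes in EV cells (blue) and sponge cells (brown), ordered by the EV value, with triangles for IP in Cy5, circles for IP in Cy3, a line at the mean, and dashed lines at 2-fold. CD274 leads with 4.28 and CD40 is last with −0.83, and the wide pair of symbols for ICOSLG in sponge cells shows its SD of 0.76.

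Set within all kept probes, the ratios of the 8 genes ran from the bulk of the distribution to its upper tail, and the lowest, that of CD40, was equalled or undercut by 24.7% of the kept probes. Ratios of 4 or more in EV cells were seen for 5.91% of all kept probes, of 8 or more for 1.70% and of 16 or more for 0.467%. CD58 and CD80 exceeded the first of these levels, PDCD1LG2 the second and CD274 the third. The same 4 genes led in sponge cells, where 4 of the 8 genes again had an IP/T of 2 or more, against 17.7% of the named genes. Over the 10 kept probes 5 passed in sponge cells, against 17.5% of all kept probes, and 4 did so with Cy5 labels only. With normexp and either normalisation 4 passed in each population, and likewise with IP in Cy3 only. With Cy3 labels only 4 passed in EV cells.

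**Figure D3:**
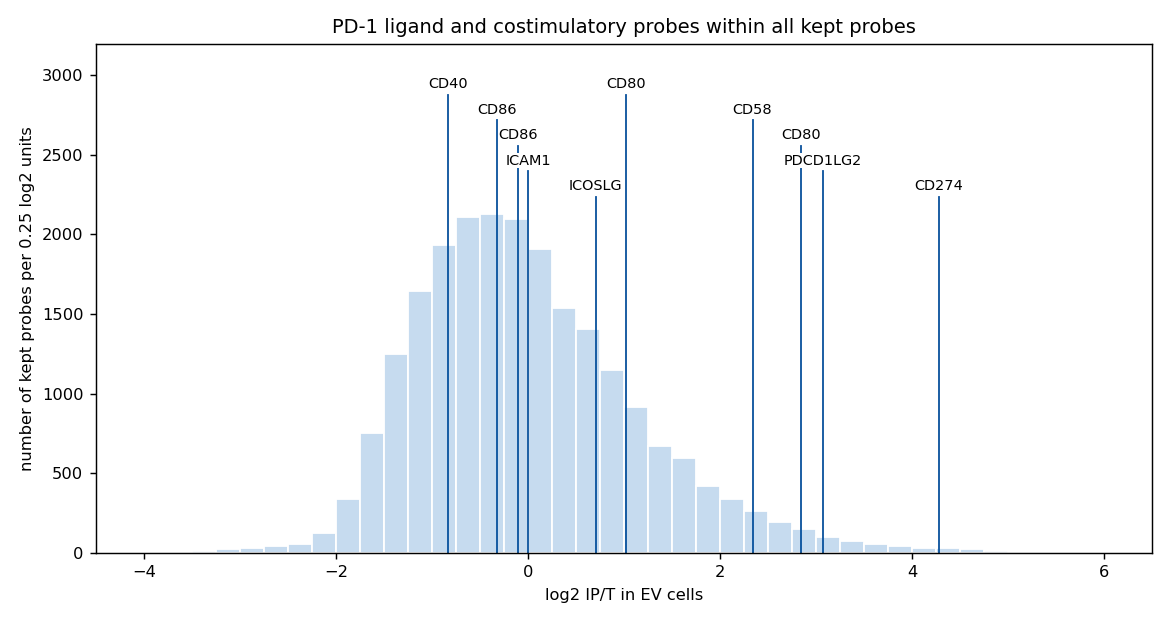
Number of kept probes (y axis) by log2 IP/T in EV cells (x axis, bins of 0.25), with a vertical line for each of the 10 kept probes of the 8 genes. The lines of CD40, CD86, ICAM1 and ICOSLG fall within the bulk of the distribution, the second CD80 probe at its shoulder, and those of CD58, CD80, PDCD1LG2 and CD274 along the right tail.

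To ask how the transcripts responded to the miR-155 sponge, sponge cells were compared with EV cells in T, in IP and in IP/T. According to the paper, the set of genes with a miR-155 site motif was not clearly depleted from IP in these sponge cells. The paper also reports mildly lower IP enrichment in these cells for most of its selected targets. Its targets from a Burkitt lymphoma line decreased mildly on average. The paper proposes that the sponge left part of the miR-155 unbound. A change of 2-fold or more was seen for 0 of the 10 kept probes in each of these comparisons. Such changes were rare on the array as a whole: in T, 0.151% of the kept probes were higher and 0.258% lower by 2-fold, in IP 0.0846% and 0.0668%, and in IP/T 0.174% and 0.138%. In IP, 8 of the 10 probes and 6 of the 8 genes were lower in sponge cells, beside 48.9% of all kept probes and 49.4% of the named genes. For all 10 the change was larger than its SD over dyes, as it was for 64.6% of all kept probes. The median change in IP over the 8 genes was −0.10 ± 0.055, beside 0.0035 over all named genes. The sizes were small, and the SD over dyes does not contain the difference between cultures.

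CD274 and CD58 had the largest changes of the IP signal. CD274 was lower in sponge IP by 0.51 on the log2 scale in Cy3 and by 0.43 in Cy5, a change of −0.47 ± 0.05, which 1.55% of the kept probes equalled or undercut. CD58 was lower in sponge IP by 0.42 in Cy3 and by 0.36 in Cy5, a change of −0.39 ± 0.04, equalled or undercut by 3.00%. Both changes kept their sign under the 12 alternatives, from −0.51 to −0.37 for CD274 and from −0.42 to −0.30 for CD58. Of these alternatives, other filters left the values as they were, and single dyes or orientations repeated the dye values above. In T, CD274 changed by −0.18 ± 0.02 (−0.16 in Cy3 and −0.19 in Cy5), but with normexp, loess and Aquantile the sign turned to 0.13. CD58 changed in T by −0.12 ± 0.23, with opposite signs in the dyes. In a bulk RNA sample, fewer cells with a transcript and less of it per cell cannot be told apart. The IP/T of CD274 changed by −0.29 ± 0.03 and that of CD58 by −0.27 ± 0.19, and 8.47% of the kept probes lay at or below the value of CD274.

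In IP, PDCD1LG2, CD80, CD86 and ICOSLG changed less than CD274 and CD58. PDCD1LG2 changed by 0.09 ± 0.10 in T and by −0.08 ± 0.03 in IP, and its IP/T by −0.17 ± 0.13. CD80 at its main probe changed by −0.12 ± 0.08 in IP and by −0.19 ± 0.15 in IP/T. Its second probe changed by −0.19 ± 0.14 in IP, with an IP/T that differed by 0.009 ± 0.18 between the populations. CD86 was the steadiest, with changes of −0.05 ± 0.01 and −0.04 ± 0.002 in IP at its 2 probes. ICOSLG was lower by 0.23 ± 0.10 in sponge IP, while its T values went in opposite directions in Cy3 (−0.24) and Cy5 (0.40), and its IP/T changed by −0.31 ± 0.36.

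ICAM1 and CD40 went the other way in IP. ICAM1 was higher in sponge cells in T, by 0.22 in Cy3 and 0.42 in Cy5 (0.32 ± 0.14), and in IP, by 0.19 and 0.15 (0.17 ± 0.03), and 7.09% of the kept probes had a change in T as high. Its change in T stayed positive under the 12 alternatives, from 0.19 to 0.42. Again only the other background corrections and normalisations gave new values. CD40 was higher in sponge IP by 0.12 in Cy3 and 0.18 in Cy5 (0.15 ± 0.04) and lower in T by 0.05 ± 0.03. Taken at main probes, it alone of the 8 genes had a higher IP/T in sponge cells, by 0.20 ± 0.06. The other 7 had a lower one, beside 48.2% of the named genes. For 6 of them, all but ICOSLG, the change was larger than its SD, beside 24.3% of the named genes. With Cy3 labels only, the change turned positive for CD80 (0.017) and for ICOSLG (0.082). The change contains the EV ratio itself, in which 4 of the 8 genes passed 2-fold. The named genes were not matched to the 8 genes for that ratio. Over the 10 kept probes 7 were lower, beside 46.9% of all kept probes, since the second probes of CD80 (0.009) and CD86 (0.02 ± 0.16) lay slightly above 0, within their spread. The median change in IP/T over the 8 genes was −0.183, beside 0.0089 over all named genes. Within single orientations this median was −0.080 (IP in Cy5) and −0.179 (IP in Cy3).

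**Figure D4:**
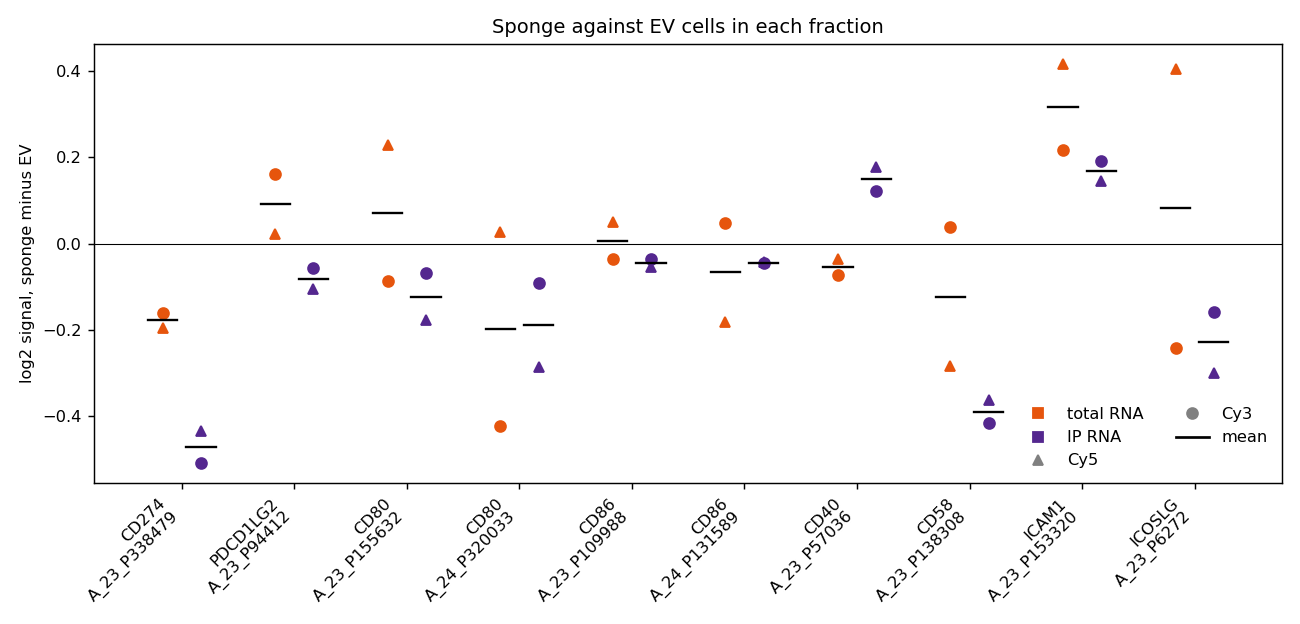
Log2 signal in sponge cells minus that in EV cells (y axis) of the 10 kept probes in total RNA (orange) and IP RNA (purple), with circles for Cy3, triangles for Cy5 and a line at the mean. In IP the 2 dyes lie close together, with CD274 (−0.47) and CD58 (−0.39) lowest and ICAM1 (0.17) and CD40 (0.15) above 0, whereas in total RNA the dyes of ICOSLG, CD80, CD86 and CD58 fall on opposite sides of 0.

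To show which transcripts shared the pattern of the PD-1 ligands, the distance between probes was taken over the 4 RNA samples, after each probe's own mean had been subtracted, across 11200 named genes. The 3 genes nearest to CD274 were DET1 at a distance of 0.096, COL19A1 at 0.11 and GPCPD1 at 0.17 log2 units, and their EV ratios on the log2 scale were 4.36, 4.16 and 4.20. Nearest to PDCD1LG2 were KDM5B at 0.028, DNAJC27 at 0.051 and CDC14A at 0.065, with 3.06, 3.07 and 2.97. The probe of CDC14A was well above background in only 4 of 8 channels.

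Genes that stand around these molecules were then counted, each at its main probe. Among all named genes, 18.1% were 2-fold or more higher in IP than in T in EV cells and 18.8% were lower. On the end of the short arm of chromosome 9, around CD274 and PDCD1LG2, 9 of 14 listed genes had a kept probe, and their median log2 IP/T (EV cells) was 0.45. Only RANBP6, a nuclear import receptor relative, passed 2-fold, with an IP/T of 2.84 in EV cells, and 0 were lower by 2-fold. Of 17 listed regulators of PD-L1 protein or transcription 14 were kept, 6 of them enriched by 2-fold or more and 2 depleted, with a median of 0.80. The enriched included the transcription factors IRF1 (2.16 ± 0.06), JUNB (1.91 ± 0.04) and IRF4 (1.25 ± 0.11), and CMTM4 (1.86 ± 0.03) and CMTM6 (1.75 ± 0.33), membrane proteins that stabilise PD-L1. The depleted were CDK5 (−1.23 ± 0.14) and COPS5 (−1.15 ± 0.19).

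The other ligands and the transducers of CD40 lay on either side of equal representation, and no list was compared with the 8 genes by a test. The shares of all named genes to set beside these counts are again 18.1% enriched and 18.8% depleted. In the list of other B7 family and immunoglobulin-like ligands, 9 of 18 genes were kept, 1 was enriched (the butyrophilin BTN2A2, 1.76 ± 0.04) and 3 were depleted: the adhesion molecule ICAM2 (−2.03 ± 0.16), its relative ICAM3 (−1.70 ± 0.40) and TNFRSF14 (−1.47 ± 0.02), the ligand of BTLA. This list also held ligands outside these families, TNFRSF14 among them, and its median was −0.70. Of 7 TNF family ligands that costimulate T cells 4 were kept, with TNFSF9 (2.22 ± 0.40) and CD70 (1.40 ± 0.02) enriched and a median of 0.90. Among 11 transducers of the CD40 signal 9 were kept, with the kinase MAP3K14 (1.60 ± 0.04) enriched, 0 depleted and a median of −0.47. None of the genes kept in these lists changed by 2-fold between sponge and EV cells in T, IP or IP/T.

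Receptors for the 8 molecules and markers of cell types were counted last. Of 10 receptors and counter-receptors 5 were detected, that is well above background in at least 4 channels, and 2 were kept, PDCD1, which encodes PD-1 (log2 IP/T −0.06 ± 0.24 in EV cells), and RGMB, a receptor for PD-L2 (1.55 ± 0.48), while the counter-receptors CD2 (7 of 8 channels well above background), ITGAL and ITGAM (8 of 8) did not pass the dye filter. CD28, CTLA4, ICOS, CD40LG and ITGB2 were well above background in 0 of 8 channels. All 8 listed markers of Hodgkin and Reed-Sternberg cells were kept, with summed linear signals of 349969 in EV and 398676 in sponge total RNA. Of 6 B cell markers 5 were kept, with sums of 46020 and 45993, and MS4A1, which encodes CD20, was well above background in 0 channels. Of 6 T cell markers 3 were detected, CD3E in 8, CD2 in 7 and CD247 in 5 of 8 channels, and only CD247 was kept (45.9 and 50.2), while TRAT1 was well above background in 2 channels and CD3D and CD3G in 0. Of 6 markers of monocytes and macrophages 4 had a probe and 2 were kept (CD14 and CSF1R, with sums of 929.3 and 914.5). CD163 and LYZ were well above background in 0 channels, and FCGR1A and MRC1 had no probe. PDCD1, the genes that were not kept and the markers were named after their values were seen. All samples came from sorted cells of the same line, and the source of the T cell and macrophage marker signals was not tested.

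**Figure D5:**
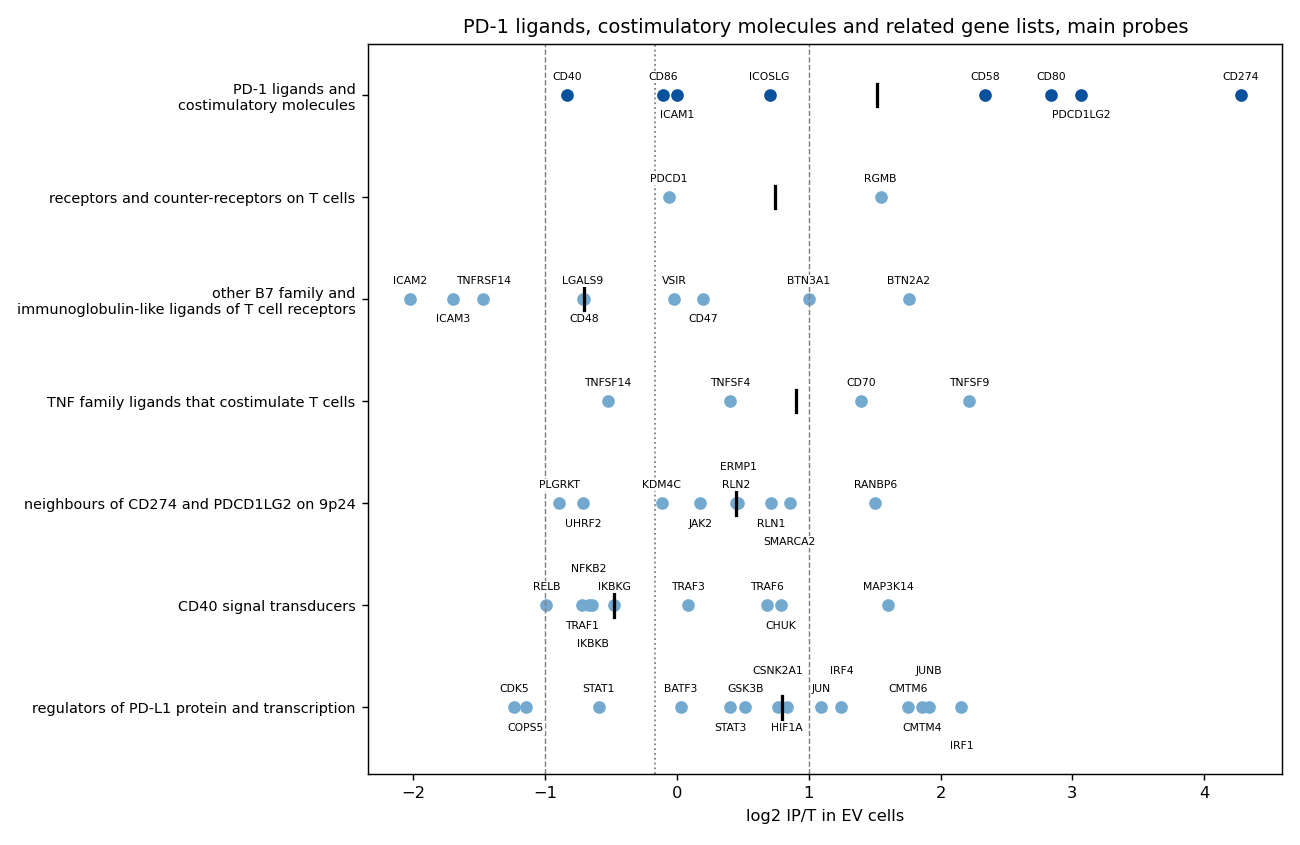
Log2 IP/T in EV cells (x axis) of the main probes of the 8 genes (top row) and of the kept genes of 6 related lists, 1 point per gene, with a short black line at each list's median, dashed lines at 2-fold and a dotted line at the median of all named genes (−0.16). The medians run from −0.70 for the list of other B7 family and immunoglobulin-like ligands to 1.52 for the 8 genes.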

How the data were processed

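The deposited scanner files give spot intensity as extracted by the authors with Agilent Feature Extraction, background-subtracted and dye-normalised. Its version is 10.5.1.1 per the labels, while the headers of the scanner files give another. Every array file was deposited for both samples it carries, and for each sample the channel of its own dye was taken. The authors also deposited a table of normalised log2 values (22282 probes). Its median distance from the values used here was at most 0.0030, and its column medians were 9.85 to 9.90. Flag columns were used as deposited.

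Following the study's methods, log2 processed signals were quantile normalised over the 8 channels (limma 3.58.1, R 4.3.3), filtered on detection and dye agreement, and averaged over Cy3 and Cy5. Quantile normalisation gives IP and T the same distribution, so IP/T is relative to the other transcripts on the array. Control and outlier spots were left out, spots of a probe were averaged, and probes were named by RefSeq identifier (GRCh38.p14, names only, since the array design uses another build), which gave a symbol to 69.5% of the kept probes. A gene's main probe was its kept probe of highest mean signal.

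The design named all probes of the 8 genes whatever their values, genes of the related lists only past 2-fold (at most 5 a list), and the 3 genes nearest each PD-1 ligand. The depleted regulators of PD-L1 were named in addition, after their values were seen. The genes and lists were chosen with earlier results of these data known. The calculation was tested on simulated data. With 1 RNA sample per group no test was made. The arrays came from 1 slide and 1 scan. Alternatives were other background corrections and normalisations, other filters, single dyes and single orientations.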

Additional observations from a re-analysis of the deposited data

Results flagged for a closer look

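For 2 genes the difference between sponge and EV cells had one sign in total RNA and the opposite sign in IP RNA, in both dyes. PDCD1LG2 (A_23_P94412) changed by 0.092 in T and by −0.081 in IP on the log2 scale. CD40 (A_23_P57036) changed by −0.053 in T and by 0.15 in IP. The change in T was within the spread over dyes for PDCD1LG2 and beyond it for CD40. Whether the fractions differed was not tested, since each group holds 1 RNA sample.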

How the results depend on the processing

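Of 595 probe values under 12 alternatives, 517 moved by less than their SD over labellings or not at all. The other 78 moved by more, and the cause was not tested. Alternatives that changed only the filter left the value of a kept probe as it was. A single orientation cannot differ from the mean of both by more than the SD, nor can a single dye for changes in T or IP. Much of the count of 517 was thus fixed in advance. The median log2 IP/T of the 10 kept probes in EV cells, 0.86 as reported, was 0.48 with normexp, loess and Aquantile and 0.43 with normexp and quantile normalisation; the first of these settings moved the median of all kept probes from −0.16 to 0.0082. The median change in IP/T, −0.16 over these probes, was −0.074 with normexp and quantile normalisation, −0.080 with the arrays with IP in Cy5 only and −0.13 with IP in Cy3 only, and ran from −0.18 to −0.013 when either labelling was left out. The counts of the 10 probes past 2-fold stayed within 1.5 times, but the shares of all kept probes beside them did not: in EV cells, 17.5% higher in IP and 19.0% higher in T became 8.77% and 5.12% with normexp, loess and Aquantile, and 7.58% and 6.13% with normexp and quantile normalisation. No paired analysis was possible because the replicate numbers are the dyes of 1 RNA sample and no result comes from a test. The number of arrays limits the precision.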

Other observations

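Of the 4 kept TNF family ligands that costimulate T cells, TNFSF9 (0.26 ± 0.09 on the log2 scale) and CD70 (0.23 ± 0.004) were higher in sponge than in EV total RNA beyond the spread over dyes, and TNFSF4 (0.45 ± 0.63) and TNFSF14 (0.18 ± 0.20) were not beyond it. Among all kept probes, 46.9% were above 0 in this comparison. CD48, a relative of CD58, was lower in sponge cells in total RNA (−0.84 ± 0.20) and in IP (−0.70 ± 0.08), with an IP/T that differed by 0.14 ± 0.28 between the populations. PLGRKT, the neighbour of CD274 on the side away from PDCD1LG2, was lower in IP than in T in EV cells (log2 IP/T −0.89 ± 0.25) and less so in sponge cells (−0.49). These values were picked after they were seen, none reached 2-fold between the populations, and no cause was tested.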
